A study of Homo sapiens with 9 samples.

Results

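The ZSCAN, ZKSCAN and ZFP genes code for zinc finger proteins whose symbols carry a number after one of these 3 prefixes. They were taken from the deposited count table as the protein-coding genes on chromosomes 1 to 22 whose name is ZSCAN, ZKSCAN or ZFP followed by a number and at most a letter and a digit. This rule found 49 of the 57820 genes in the table and used no measured value. By name they were 21 ZSCAN genes, 7 ZKSCAN genes and 21 ZFP genes, and 2 of the 49 are gene models that share the name ZFP41.

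The data came from Chrom-seq, which labels RNA near a chromatin mark in living cells, in HEK293T cells, an established line derived from human embryonic kidney. A reader domain fused to SunTag epitopes draws the peroxidase APEX2 to the mark, and RNA close by is then biotinylated and captured. There were 3 groups of 3 libraries. In the CBX1 group the reader was the chromodomain of CBX1, a heterochromatin protein that binds histone H3 trimethylated at lysine 9 (H3K9me3). The CBX1_W42A group had this chromodomain with a replacement of an aromatic cage tryptophan that contacts the methylated lysine, and in the Control group the SunTag carried no reader. In the deposited counts all 9 libraries, Control included, are also labelled NLS, which the labels do not explain further. All 9 libraries came from transiently transfected cells of this 1 line, labelled with biotin-aniline (500 μM, 30 min) and hydrogen peroxide (1 mM, 1 min) at 48 hours from transfection, and their captured RNA was poly(A)-selected. The study describes its replicates as independent, and nothing in the labels says that they were separate cultures, so p-values measure the spread between these libraries, which may be technical in part.

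Most of these proteins bind DNA through C2H2 zinc fingers, small folds in which a pair of cysteines and a pair of histidines hold a zinc ion. Many carry a SCAN domain, through which they pair with each other, and some carry a KRAB domain, which recruits TRIM28 (KAP1) and with it the H3K9 methyltransferase SETDB1 and the HP1 proteins, CBX1 among them. In human cells, clusters of C2H2 zinc finger genes, the large ones on chromosome 19 above all, are themselves known to carry H3K9me3. ZFP36, ZFP36L1 and ZFP36L2 share only the prefix, since their CCCH fingers bind AU-rich elements in messenger RNA and promote its decay.

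The fingers can be read from the genes. In the coding sequence of the reference transcript (GENCODE version 44 on hg19), which was found for 48 of the 49 genes, 45 held C2H2 fingers by their spacing of cysteines and histidines, between 2 and 25 per protein with a median of 7. The other 3, ZFP36, ZFP36L1 and ZFP36L2, held CCCH fingers and no C2H2 finger. The first regularly spaced finger of ZSCAN5A and ZSCAN18, which are described first below, of ZFP82 and of the CCCH protein ZFP36L1 is printed here to show how the families differ. The sequences are given 5′ to 3′ on the coding strand, which is the minus strand for these 4 genes, with the codons of the zinc-binding cysteines and histidines in capitals. The finger of ZSCAN5A, which has 5 matches, lies at chr19:56733301-56733363, that of ZSCAN18, with 2, at chr19:58596280-58596342, that of ZFP82, with 12, at chr19:36884666-36884728, and that of ZFP36L1 at chr14:69256850-69256909.
ZSCAN5A: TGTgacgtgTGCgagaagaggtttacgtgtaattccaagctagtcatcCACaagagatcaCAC
ZSCAN18: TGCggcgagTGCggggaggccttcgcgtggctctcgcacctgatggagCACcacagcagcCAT
ZFP82: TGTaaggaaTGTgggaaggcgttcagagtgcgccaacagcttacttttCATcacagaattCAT
ZFP36L1: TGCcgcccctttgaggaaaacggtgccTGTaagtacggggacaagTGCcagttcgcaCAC
The C2H2 fingers spell 2 cysteine codons close together and 2 histidine codons at the 3′ end, whereas the CCCH finger spells 3 spread cysteine codons and 1 histidine codon.

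The depth was 8379542 to 11082852 counts per library, and 3 counts, the most that a count of 0 allows, correspond to 0.271 to 0.358 CPM, normalized counts scaled to a common library total. HEK293T markers were present in all 9 libraries, among them VIM (417 to 615 CPM), CDH2 (120 to 150 CPM) and PAX2 (4.07 to 10.6 CPM). Of the markers of other cell types, CD3E had 0 counts, PTPRC reached 0.193 CPM, MYH6 1.05 CPM, ALB 2.78 CPM and GFAP 5.46 CPM. A gene was counted over its whole span, introns included, and a read within more than 1 gene of a strand was counted for none. Of the 49 genes, 39 had more than 18 counts over the 6 libraries of each comparison and were tested, all by edgeR's quasi-likelihood test, with p-values adjusted over all genes by the Benjamini-Hochberg method. A call, higher or lower, needed an adjusted p under 0.05 together with a log2 fold change of 0.75 or more that way.

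The other 10 genes had too few counts to test. ZSCAN4, a gene of early embryos and of a small share of embryonic stem cells, ZFP57, which guards methylated imprinting control regions, and ZSCAN5D had 0 counts in all 9 libraries. ZFP42 (REX1), a marker of pluripotent stem cells, had 5 counts in all, ZSCAN1 had 2, and ZSCAN5B and ZSCAN5C had 7 each. ZFP3 had 12 counts, 0 in the Control libraries, 6 with CBX1 and 6 with CBX1_W42A. Of the last 2, ZFP36L2 (0 counts) could not be counted, since it lies wholly inside THADA on the same strand. ZKSCAN7 (5 counts) has 36.6% of its span free of other genes of the strand, and whether the overlap lowered its count was not tested. Among the tested genes, ZFP91, an E3 ubiquitin ligase, was counted on only 0.145% of its span, because it shares the rest with the read-through gene ZFP91-CNTF. It had 6 to 23 counts per library.

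With the CBX1 reader against Control, the comparison that asks which RNAs were captured more near H3K9me3, 3 of the 39 tested genes were higher and 1 was lower. The higher genes were ZSCAN5A, ZFP2 and ZSCAN18, and the lower one was a ZFP41 gene model. Among all 18837 genes tested, 7.06% were called higher and 0.34% lower, so the 3 of 39 higher (7.69%) lay close to the share of all genes. Of the protein-coding genes tested, as all 39 are, 4.76% were higher. With the abundance trend removed, 636 of the 18837 genes and the same 3 of the 39 were higher. In captured RNA, more labelling of an RNA and more of that RNA in the cells cannot be told apart, nor can fewer cells that hold an RNA and less of it per cell, since total RNA was not analysed here.

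**Figure D1:**
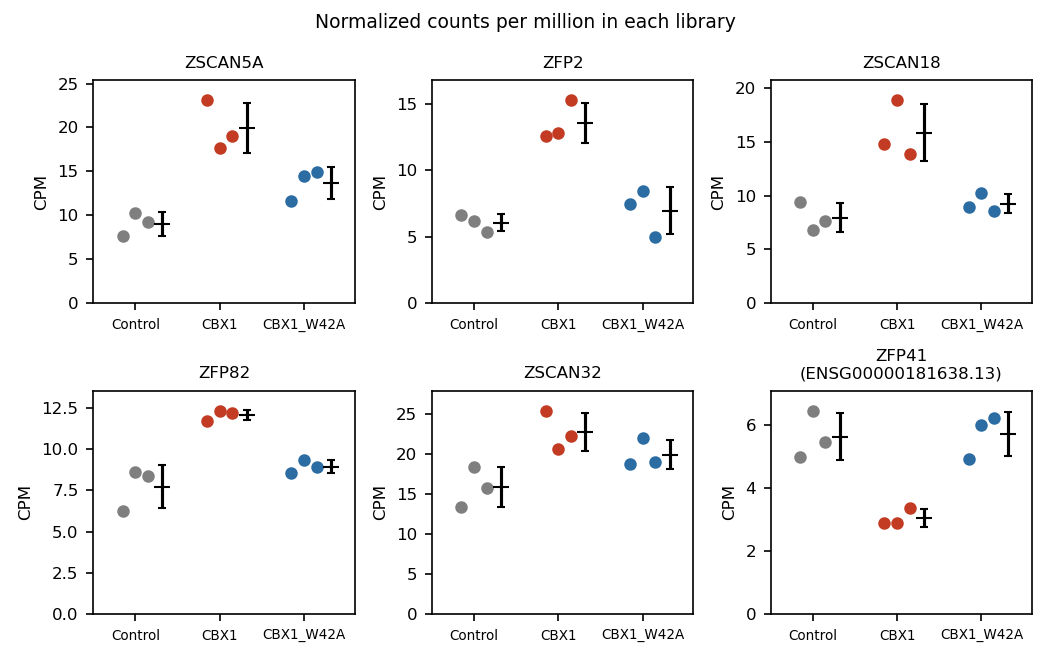
Normalized counts in CPM (y axis, linear from 0) of 6 genes in each of the 9 libraries, grouped by reader on the x axis; points are libraries and the black bar beside each group is its mean ± SD (n = 3). For ZSCAN5A, ZFP2, ZSCAN18, ZFP82 and ZSCAN32 every CBX1 point lies above every Control point, and for ZFP41 (ENSG00000181638.13) every CBX1 point lies below.

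ZSCAN5A (ENSG00000131848.5), a SCAN domain protein with C2H2 fingers, had 7.60, 10.3 and 9.22 CPM in the Control libraries, 23.1, 17.7 and 19 CPM with CBX1, and 11.6, 14.5 and 14.9 CPM with CBX1_W42A. The 3 groups did not overlap, and CBX1_W42A lay between the other two. The log2 fold change of CBX1 against Control was 1.17 (SE 0.16, 95% interval 0.83 to 1.52, adjusted p = 0.00021), that is 2.26-fold. Its span on chromosome 19, 56732681 to 56879752 on the minus strand of hg19, is 147 kb long, of which exons make up 5.47% and 86.4% is free of other genes of the strand.

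ZFP2 (ENSG00000198939.3), a protein of 13 C2H2 fingers, had 6.62, 6.22 and 5.34 CPM in Control, 12.6, 12.8 and 15.3 CPM with CBX1, and 7.46, 8.42 and 4.97 CPM with CBX1_W42A. The CBX1 libraries stood above all 6 others, while CBX1_W42A overlapped Control. The CBX1 group was higher than Control by a log2 fold change of 1.18 (SE 0.18, 95% interval 0.81 to 1.55, adjusted p = 0.000351), or 2.27-fold. ZFP2 lies on chromosome 5, 178322895 to 178360213 on the plus strand, where exons cover 7.07% of its 37.3 kb.

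ZSCAN18 (ENSG00000121413.8), a SCAN domain gene known for promoter methylation in gastrointestinal tumours, had 9.45, 6.78 and 7.64 CPM in Control, 14.8, 18.9 and 13.9 CPM with CBX1, and 8.91, 10.3 and 8.57 CPM with CBX1_W42A. Again the CBX1 libraries were above all others, and CBX1_W42A overlapped Control. The log2 fold change of CBX1 against Control was 1.01 (SE 0.18, 95% interval 0.63 to 1.38, adjusted p = 0.00118), or 2.01-fold. It spans 34.6 kb of chromosome 19, 58595205 to 58629794 on the minus strand, with exons over 23.6%.

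The sequence upstream of ZSCAN18 and ZSCAN5A is shown because both were called higher. For 39 of the 48 gene names the RefSeq promoter table (GRCh38.p14) held 58 windows of 250 bases before a gene start, and the ZFP2 promoter is not among them. The windows whose starts lie nearest the counted genes are printed 5′ to 3′ on the gene's strand, cut to the bases before the deposited gene start, with GGGCGG (GC box), searched on both strands and here present as its complement, in capitals. That of ZSCAN18 is chr19:58118428-58118654 and that of ZSCAN5A chr19:56368384-56368528, both on the minus strand of GRCh38.p14.
ZSCAN18: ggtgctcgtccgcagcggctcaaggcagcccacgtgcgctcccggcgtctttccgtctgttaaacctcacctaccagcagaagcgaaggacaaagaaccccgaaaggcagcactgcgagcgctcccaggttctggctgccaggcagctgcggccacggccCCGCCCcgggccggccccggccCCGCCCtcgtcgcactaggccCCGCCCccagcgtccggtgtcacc
ZSCAN5A: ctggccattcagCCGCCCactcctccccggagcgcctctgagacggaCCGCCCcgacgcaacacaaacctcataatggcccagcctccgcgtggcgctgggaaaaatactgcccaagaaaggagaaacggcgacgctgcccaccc
The ZSCAN18 stretch holds 3 such matches and the ZSCAN5A stretch 2, and neither 250-base window holds TATAAA or CCAAT on either strand. Of the 58 member windows, 55.2% held GGGCGG, against 42.6% of all 35116 windows. CCAAT was in 32.8% of the member windows and 32% of all, and TATAAA in 1.72% and 10.7%. Windows of 1 gene can overlap, so these shares are a description, and a match is not a site of binding.

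ZFP41 was the one gene model called lower. The model ENSG00000181638.13 on chromosome 8 had 4.97, 6.44 and 5.46 CPM in Control, 2.89, 2.88 and 3.38 CPM with CBX1, and 4.91, 6 and 6.24 CPM with CBX1_W42A. The CBX1 libraries were below all others, by a log2 fold change of -0.85 against Control (SE 0.24, adjusted p = 0.0221). Only 1.82% of its span is free of other genes of the strand, mainly the second ZFP41 model, so its 26 to 59 counts per library come from that small part. The call was lost when Control replicate 2, CBX1 replicate 1 or CBX1 replicate 2 was left out (adjusted p = 0.0673, 0.0655 and 0.0586). The second model, ENSG00000264668.1, with 2 to 14 counts per library and 16.1% of its span free, had a log2 fold change of 1.16 (SE 0.61, adjusted p = 0.189), so the 2 models of 1 name had opposite signs.

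Just short of the call, ZFP82 had 6.23, 8.59 and 8.37 CPM in Control and 11.7, 12.3 and 12.2 CPM with CBX1, with no overlap, at a log2 fold change of 0.67 (SE 0.18, adjusted p = 0.0134). ZSCAN32 had a log2 fold change of 0.55 (SE 0.15, adjusted p = 0.0138), also with no overlap. ZFP1, with 33.0, 27.8 and 29.1 CPM in Control and 23.7, 21.4 and 21.4 CPM with CBX1, had one of -0.41 (SE 0.12, adjusted p = 0.0226). These 3 passed the adjusted p but not the fold. At any fold, 5 of the 39 were higher and 2 lower, against 10.6% and 9.46% of all genes. An unadjusted p under 0.05 was reached by 13 of the 39 and by 34.2% of all genes.

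**Figure D2:**
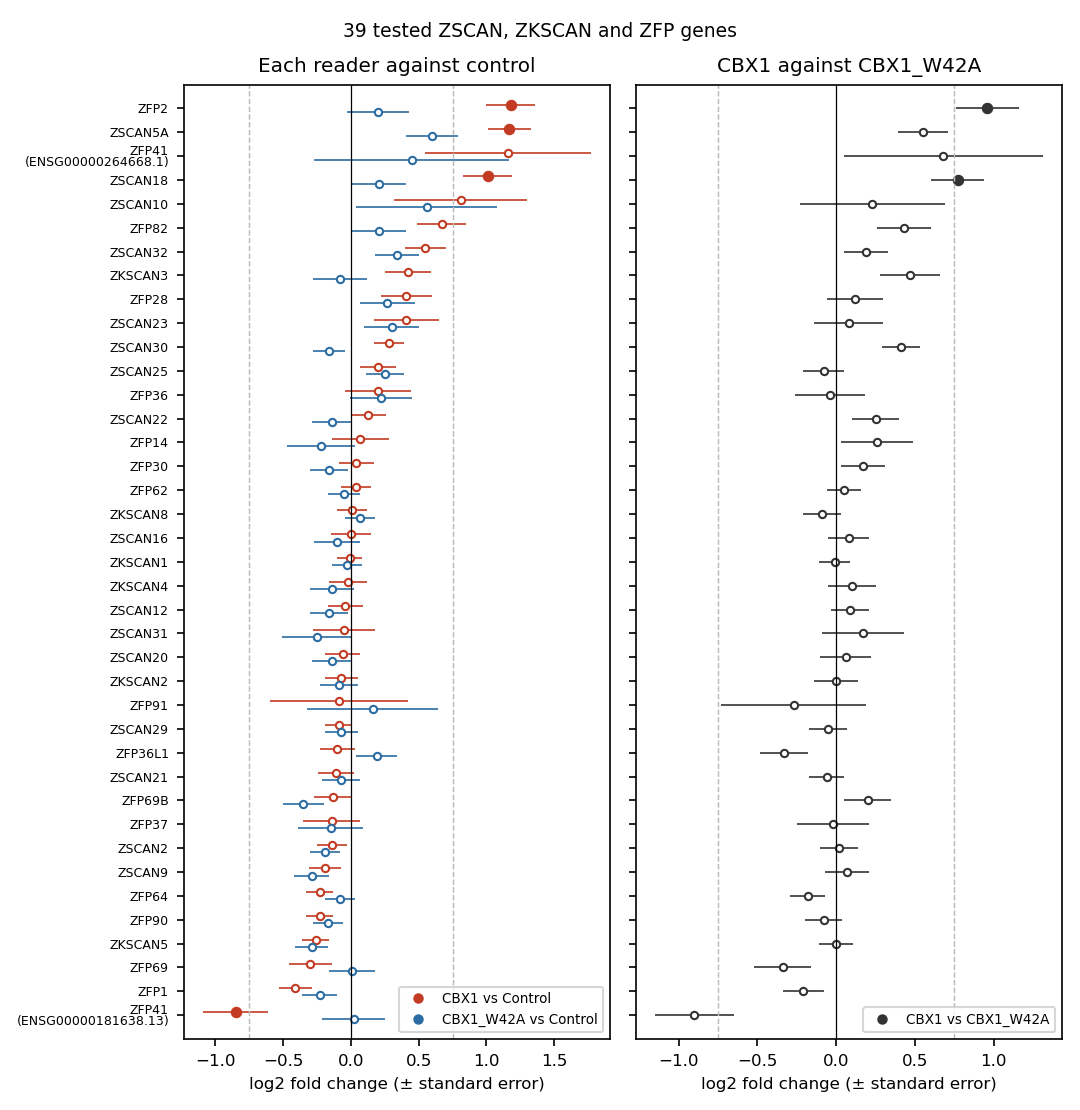
Log2 fold change (x axis) ± standard error of the 39 tested genes, 1 per row and ordered by CBX1 against Control; filled points were called, open points were not, and dashed lines mark 0.75 in each direction. The left panel shows both readers against Control (red CBX1, blue CBX1_W42A) and the right panel CBX1 against CBX1_W42A; ZFP2 and ZSCAN18 are filled in both comparisons with CBX1, and no blue point is filled.

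The log2 fold change lay between -0.5 and 0.5 in 31 of the 39 (79.5%), against 72.5% of all genes and 81.1% of protein-coding genes. Its median over the 39 was -0.01, against 0.03 for all genes, -0.04 for protein-coding genes and 0.19 for the 413 tested protein-coding genes named ZNF with a number. CBX1 and Control libraries did not overlap in 15 of the 39, 7 of them higher with CBX1 and 8 lower, where 17.6% and 20.3% of all genes were so separated. Summed over all 49 genes, the level was 1030 to 1180 CPM per library, and the 3 groups overlapped.

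By family, 2 of 16 tested ZSCAN genes, 0 of 6 ZKSCAN genes, 1 of 15 ZFP genes with C2H2 fingers and 0 of the 2 tested CCCH genes were higher with CBX1, at median log2 fold changes of 0.07, -0.02, -0.09 and 0.05. The counts of 0 were also 0 by DESeq2. At an unadjusted p under 0.05 there were 2 ZKSCAN genes by edgeR (1 by DESeq2) and 0 CCCH genes. Beside the 7.06% of all genes that were higher and the 34.2% at this unadjusted p, counts of 0 in groups this small do not set a family apart. ZKSCAN1, a widely expressed gene best known for its circular RNA, had 140, 125 and 128 CPM in Control and 125, 128 and 130 CPM with CBX1 (log2 fold change -0.01, SE 0.09, 95% interval -0.20 to 0.18). ZKSCAN3, a repressor of autophagy and lysosome genes, had 9.35, 11.9 and 9.46 CPM in Control and 16.2, 12.3 and 11.8 CPM with CBX1, which overlap (log2 fold change 0.42, SE 0.17, adjusted p = 0.0999). ZSCAN10, a transcription factor of embryonic stem cells, rested on 4 to 16 counts per library, and its log2 fold change of 0.81 carried an SE of 0.49.

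Of the CCCH genes, ZFP36 (tristetraprolin) had 8.67, 4.97 and 7.89 CPM in Control and 5.67, 8.76 and 9.86 CPM with CBX1 (log2 fold change 0.20, SE 0.24). ZFP36L1 had 38.4, 29.8 and 33.1 CPM in Control and 31.6, 26.2 and 34.8 CPM with CBX1 (log2 fold change -0.10, SE 0.13). Both overlapped between the groups. ZFP64, a transcription factor gene whose 153 kb is the longest span among the 39, had 70.0, 61.3 and 70.5 CPM in Control and 53.6, 59.9 and 55.1 CPM with CBX1 (log2 fold change -0.23, SE 0.10, adjusted p = 0.104). ZFP91 had a log2 fold change of -0.09 (SE 0.51).

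Across the 39 genes, the log2 fold change of CBX1 against Control had little relation to the span (Pearson r 0.19, Spearman rho 0.08) or to the share of the span in exons (r -0.25, rho -0.04), and a negative one to the mean CPM over the 9 libraries (r -0.41, rho -0.36). The last was as negative with CBX1_W42A against Control (r -0.49, rho -0.37), a comparison that shares the Control libraries. These are correlations across genes of the same libraries, and genes are not independent replicates. For the span and the mean CPM, Pearson r was taken on their logarithms.

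By chromosome, the median log2 fold change over the 8 tested genes on chromosome 19 was 0.31 for CBX1 against Control, and 2 of them, ZSCAN5A and ZSCAN18, were higher. All 8 were above 0, as under RLE scaling and the library size alone, but 7 were with the abundance trend removed. Without Control replicate 1 or without CBX1 replicate 2 there were also 7, and without Control replicate 2 there were 6. With CBX1_W42A against Control, which shares the Control libraries, the median of these 8 was 0.21 and 5 were above 0. Among the ZNF-numbered genes, 36 of 187 on chromosome 19 (19.3%, median log2 fold change 0.41) and 10 of 226 elsewhere (4.42%, median 0.05) were higher. The 8 tested genes on chromosome 6, all within the cluster from ZSCAN16 to ZSCAN23, had a median of -0.01, between -0.19 for ZSCAN9 and 0.42 for ZKSCAN3. By edgeR's quasi-likelihood test or by DESeq2, 0 of them were called, with 1 and 0 at an unadjusted p under 0.05. Among all 18837 genes tested, 7.06% were called higher and 0.34% lower, 34.2% had an unadjusted p under 0.05, and 9968 were above 0. Beside these shares, a count of 0 among 8 genes does not set chromosome 6 apart. The 23 on other chromosomes had a median of -0.09, with ZFP2 higher and ZFP41 lower. The difference between chromosomes was not tested.

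**Figure D3:**
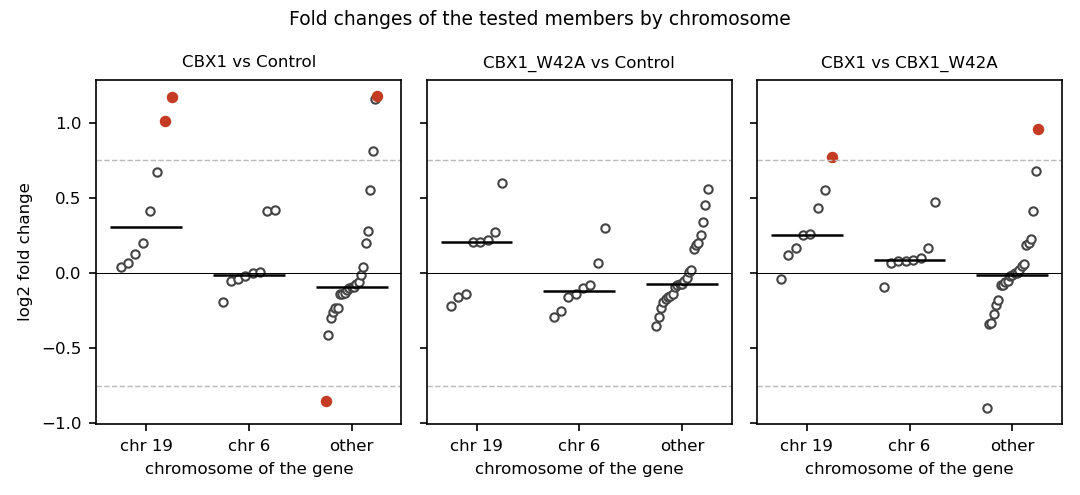
Log2 fold change (y axis) of the tested genes on chromosome 19 (8 genes), chromosome 6 (8) and other chromosomes (23), in the 3 comparisons; red points were called, the solid bar is the median, and dashed lines mark 0.75 in each direction. The medians for CBX1 against Control are 0.31, -0.01 and -0.09.

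With CBX1_W42A against Control, none of the 39 genes was called. edgeR's quasi-likelihood test and DESeq2 both gave 0, and by edgeR 5 genes had an unadjusted p under 0.05. Among all 18680 genes tested, 0.974% were higher and 0.0214% lower, and 19.3% had an unadjusted p under 0.05. The smallest adjusted p were those of ZSCAN5A (log2 fold change 0.60, SE 0.19, adjusted p = 0.0848), ZKSCAN5 (-0.29, SE 0.12, adjusted p = 0.188) and ZFP69B (-0.35, SE 0.15, adjusted p = 0.201). At any fold, 0 of the 39 passed the adjusted p, against 1.37% of all genes higher and 1.25% lower. The groups did not overlap in 3 genes higher and 5 lower, against 12% and 12.5% of all genes. In ZSCAN5A all 3 CBX1_W42A libraries were above all 3 Control libraries. ZFP2 had a log2 fold change of 0.20 (SE 0.23, 95% interval -0.29 to 0.69) and ZSCAN18 one of 0.21 (SE 0.20, 95% interval -0.20 to 0.63). ZFP41 (ENSG00000181638.13) was at 0.02 (SE 0.23). Of the genes of known roles, ZFP36 was at 0.22, ZFP36L1 at 0.19, ZSCAN10 at 0.56 (SE 0.52), ZKSCAN3 at -0.08, ZKSCAN1 at -0.03, ZFP64 at -0.08 and ZFP91 at 0.16 (SE 0.48). The median over the 39 was -0.07, against 0.01 for all genes.

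The direct comparison of CBX1 with CBX1_W42A, whose readers differ in the tryptophan that contacts the mark, tests whether these groups of libraries differed. The labels do not say whether the CBX1_W42A libraries were prepared together with the others. A difference in preparation therefore cannot be told apart from the reader, here or against Control. 2 of the 39 genes were higher with CBX1 and 0 lower, where 0.795% of the 19360 genes tested were higher and 0.201% lower. Among the ZNF-numbered genes, 28 of 417 (6.71%) were higher and 0 lower. Of these genes, 22 of 189 on chromosome 19 (11.6%) and 6 of 228 elsewhere (2.63%) were higher. ZFP2 had a log2 fold change of 0.96 (SE 0.20, 95% interval 0.55 to 1.37, adjusted p = 0.0121), or 1.94-fold, and every CBX1 library was above every CBX1_W42A library. ZSCAN18 had one of 0.77 (SE 0.17, 95% interval 0.41 to 1.13, adjusted p = 0.0204), or 1.71-fold, also without overlap. At any fold the counts were still 2 and 0, against 1.32% and 0.925% of all genes, and 8 of the 39 had an unadjusted p under 0.05, against 16.6%. The groups did not overlap in 5 genes higher and 3 lower, against 10.3% and 11% of all genes. Both calls rest on few libraries. ZFP2 lost the call without CBX1 replicate 3 (adjusted p = 0.0834) or CBX1_W42A replicate 3 (0.0585). ZSCAN18 lost it without CBX1 replicate 1 or 2 (0.0559 and 0.0957) or CBX1_W42A replicate 1 or 3 (0.056 and 0.0736).

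ZSCAN5A, called with CBX1 against Control, was not called here (log2 fold change 0.55, SE 0.16, 95% interval 0.22 to 0.88, adjusted p = 0.0706), although its groups did not overlap. Its 2.26-fold and 1.51-fold values for CBX1 and CBX1_W42A share the Control libraries. ZFP41 (ENSG00000181638.13) had a log2 fold change of -0.90 (SE 0.25, adjusted p = 0.0621), which is called lower with no filter on low counts, with a replicate block or with the abundance trend removed. ZSCAN30, on chromosome 18, had 83.7, 66.1 and 67.6 CPM with CBX1 and 55.7, 58.4 and 48.8 CPM with CBX1_W42A (log2 fold change 0.41, SE 0.12, adjusted p = 0.0663). Of the genes named in each comparison, ZKSCAN3 was at 0.47 (SE 0.19), ZFP36L1 at -0.33 (SE 0.15), ZFP64 at -0.18, ZFP91 at -0.27, ZSCAN10 at 0.23, ZFP36 at -0.04 and ZKSCAN1 at -0.01, none called. The median over the 39 was 0.07, and 0.26 over the 8 on chromosome 19.

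The genes around the 3 higher members, named after their values were seen, differed between them. Of all genes tested, 7.06% were called higher with CBX1 against Control and 0.795% with CBX1 against CBX1_W42A. Within 200 kb of ZFP2, 3 of 7 tested genes were higher with CBX1 against Control and 3 of 7 against CBX1_W42A, namely ZNF454, ZNF354C and the antisense RNA RP11-281O15.4. DESeq2 called 2 of the 7 in each. RP11-281O15.4 had a mean of 0.143 CPM in Control and 0.0303 CPM with CBX1_W42A, both below the 3-count floor, and 0.914 CPM with CBX1. It had too few counts to test with CBX1_W42A against Control. Its calls therefore passed the count filter only through the CBX1 libraries, where it was high. ZNF354C rose from 0.34 ± 0.366 CPM in Control to 3.77 ± 0.293 CPM with CBX1 (SD, n = 3) and was 0.377 ± 0.231 CPM with CBX1_W42A. Its log2 fold change was 3.49 against Control (adjusted p = 0.000389) and 3.31 against CBX1_W42A (adjusted p = 0.000561). ZNF354A and ZNF354B, in the same window, were at 0.07 and -0.23 against Control and were not called.

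Of the ZNF-numbered genes on chromosome 19, 19.3% were called higher with CBX1 against Control and 11.6% against CBX1_W42A. Beside these shares, within 200 kb of ZSCAN18, 5 of 14 tested genes were higher with CBX1 against Control, and 4 of them against CBX1_W42A. They were ZNF418 (log2 fold change 1.67), C19orf18 (3.21), CTD-2368P22.1 (1.84), ZNF329 (1.19) and ZNF606 (0.82), the last not called against CBX1_W42A (0.69, adjusted p = 0.061). C19orf18 rose from 0.71 ± 0.611 CPM in Control to 6.49 ± 1.29 CPM with CBX1 (SD, n = 3), with 0.775 ± 0.161 CPM with CBX1_W42A. ZNF135, which overlaps part of the ZSCAN18 span on the opposite strand and starts outside it, had 42 counts in all 9 libraries and a log2 fold change of 1.28 (adjusted p = 0.223).

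Around ZSCAN5A, 0 of 12 tested genes were called with CBX1 against Control by edgeR's quasi-likelihood test or by DESeq2. These 12 held 6 with an unadjusted p under 0.05 by edgeR and 4 by DESeq2. Their median log2 fold change was 0.46, and ZNF471, ZNF583 and ZNF470 passed the adjusted p without the fold (0.63, 0.50 and 0.44, adjusted p = 0.0183, 0.0236 and 0.0241). Against CBX1_W42A, ZNF471 was called (0.80, adjusted p = 0.0482). Of all 39 tested genes, 24 (61.5%) had at least 1 gene called higher within 200 kb with CBX1 against Control, beside 36.7% of all genes tested, and 17 (43.6%) by DESeq2, beside 31.9%. There were 3 or more such genes around 3 of the 39 (7.69%; ZFP2, ZSCAN18 and ZSCAN10, whose own fold change was not called), beside 4.37% of all genes. Against CBX1_W42A, 11 of the 39 (28.2%) had one, beside 4.89% of all genes. With CBX1_W42A against Control, 0 of the 39 had one by edgeR's quasi-likelihood test or by DESeq2, beside 7.99% and 8.48% of all genes. Windows of neighbouring members overlap, so these shares describe shared regions, and their difference was not tested.

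**Figure D4:**
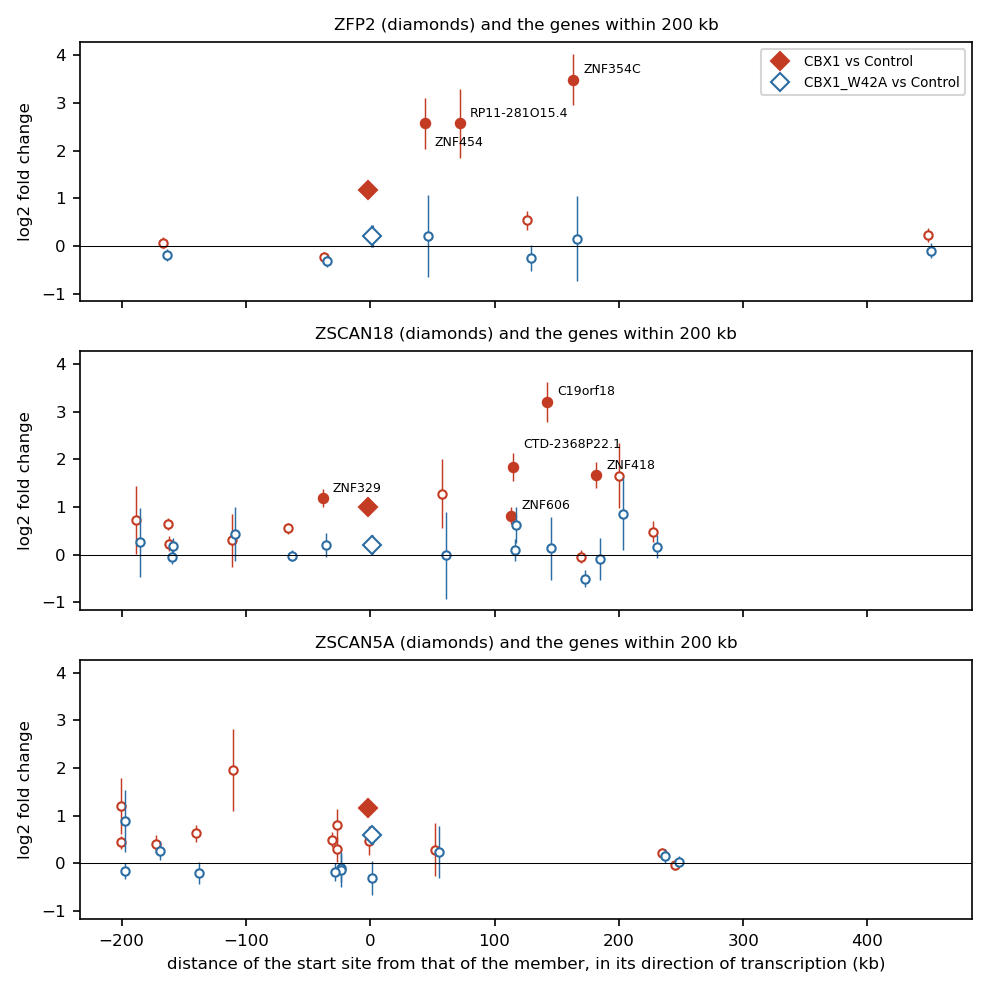
Log2 fold change ± standard error (y axis) of the tested genes that lie within 200 kb of ZFP2, ZSCAN18 and ZSCAN5A, against the distance in kb from the member's start site to theirs (x axis, positive in the member's direction of transcription). Diamonds are the members, red is CBX1 and blue CBX1_W42A against Control, and filled symbols were called; the called neighbours of ZFP2 and ZSCAN18 reach 3.49 and 3.21 with CBX1, and no blue symbol is filled.

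Of 22 tested genes of the H3K9me3 silencing pathway (HP1 proteins, methyltransferases, TRIM28 and their partners), 0 were higher and 1 lower with CBX1 against Control by edgeR's quasi-likelihood test and by DESeq2, beside 7.06% and 0.34% of all genes. An unadjusted p under 0.05 was found in 11 of the 22 and in 34.2% of all genes. At any fold 3 passed the adjusted p higher and 4 lower, beside 10.6% and 9.46% of all genes. The gene called lower was CHAF1B, a subunit of the chromatin assembly factor (log2 fold change -0.80, SE 0.10, adjusted p = 7.8e-05). TRIM28, the KRAB corepressor, was at -0.12 (adjusted p = 0.373) and SETDB1 at 0.16 (adjusted p = 0.39).

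Against CBX1_W42A none of the 22 was called by either tool, beside 0.795% of all genes higher and 0.201% lower, and 7 had an unadjusted p under 0.05, beside 16.6%. The adjusted p without the fold was passed by 3 with a higher level, ATF7IP, a partner of SETDB1 (log2 fold change 0.73, adjusted p = 0.000733), ZNF274 (0.54, adjusted p = 0.00894), which also lies within 200 kb of ZSCAN18, and SETDB1 (0.47, adjusted p = 0.0327), and by CHAF1B with a lower one (-0.44, adjusted p = 0.034). With CBX1_W42A against Control none was called by either tool, and 6 had an unadjusted p under 0.05, beside 19.3% of all genes. Of the 22, 18 had a negative log2 fold change there, with a median of -0.13 against 0.01 for all genes, and the groups did not overlap in 1 higher and 7 lower, beside 12% and 12.5% of all genes.

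Of 21 tested genes that carry a SCAN domain under other names, 0 were called in each of the 3 comparisons by either tool. With CBX1 against Control 8 of them had an unadjusted p under 0.05, beside 34.2% of all genes, and the median log2 fold change was 0.13. The mutant reader against Control gave 3, beside 19.3%, and a median of 0.00. Between the readers there were 5 (4 by DESeq2), beside 16.6%, and the median was 0.09.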

How the data were processed

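Read trimming by the authors used fastp 0.23.1, alignment HISAT2 2.1.0 against hg19, and counting of read pairs per gene featureCounts 2.0.1 with the GENCODE v19 genes. They deposited raw counts for 57820 genes in 9 HEK293T Chrom-seq libraries (8379542 to 11082852 counts each), without normalization. The strand setting is not given in the sources used here. Of the genes listed, 7910 lie inside another gene of their strand and 0 of them have a count, whereas 3771 of 9345 genes inside a gene of the opposite strand have counts.

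Groups came from the sample labels. Each comparison took the 6 libraries of 2 groups, genes whose counts summed to more than 18, and TMM factors, in edgeR (version 4.0.16, R 4.3.3), with quasi-likelihood tests and Benjamini-Hochberg adjustment over all genes tested. Thresholds and pairwise fits follow the study's methods. CPM used TMM factors over all 9 libraries. The tests were run on simulated counts with 200 genes changed by log2 1.5, and 149 to 167 of them were called per comparison. Of the unchanged genes, 2 to 6 were called. Smaller changes, such as those of the members called here, were not simulated. The genes, lists and comparisons were chosen with earlier results of these data known. Genes named were those called, the 3 with the smallest adjusted p that missed a threshold, a fixed list of genes of known role, the untested genes, and the genes within 200 kb of a called one, these last chosen after their values were seen. Alternatives were DESeq2 (version 1.42.0), other scalings and filters, all 9 libraries in one fit, a replicate block, other fold thresholds, removal of an abundance trend (lowess, span 0.3) and leaving out each library. RefSeq promoters and a GRCh37 genome gave the sequences. Intervals and floors cover counting error and the spread of these libraries only.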

Additional observations from a re-analysis of the deposited data

Results flagged for a closer look

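2 genes were singled out because their 2 readers, each set against Control, differed by a test of the difference itself. ZFP2 was higher with CBX1 than with CBX1_W42A by 0.96 on the log2 scale (SE 0.20, adjusted p = 0.0121 by edgeR's quasi-likelihood test), with all 3 CBX1 libraries (12.6 to 15.3 CPM) above all 3 CBX1_W42A libraries (4.97 to 8.42 CPM). ZSCAN18 was higher by 0.77 (SE 0.17, adjusted p = 0.0204), with 13.9 to 18.9 CPM against 8.57 to 10.3 CPM. Some genes within 200 kb, chosen after their values were seen, were higher in the same comparison. There were 3 of 7 around ZFP2 and 4 of 14 around ZSCAN18, beside 0.795% of all genes and 11.6% of ZNF-numbered genes on chromosome 19. By DESeq2 there were 2 of 7 and 4 of 14. The antisense RNA among the 3 around ZFP2 passed the count filter only through the CBX1 libraries, where it was high. The part of these neighbouring genes in the result was not tested. The span of ZSCAN18 has no other gene on its strand, and 98.3% of the ZFP2 span has none.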

How the results depend on the processing

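With CBX1 against Control, 3 genes were higher; this became 5 with no minimum fold, 4 with the library size alone (ZFP82 added) and 0 when the change itself was tested against log2 0.75, and it was 3 to 3 without single libraries. The 1 lower gene became 0 at a minimum of log2 1, 2 with no minimum fold and 0 in the test against log2 0.75, and 0 to 1 without single libraries. With CBX1 against CBX1_W42A, the 2 higher genes became 0 at log2 1 and 0 in the test against log2 0.75, and 0 to 2 without single libraries, with 0 left without CBX1_W42A replicate 3. The count of 0 lower became 1, ZFP41, with no filter on low counts, with the replicate block and with the abundance trend removed. Of 609 values of single genes under the alternatives, 584 kept their side of the thresholds, 25 of the 609 changed sign in genes not called in either fit, and none reversed a call. CBX1_W42A against Control gave 0 under every alternative. The library size alone moved the median of all genes with CBX1 against Control from 0.03 to 0.12 and that of the members from -0.01 to 0.08.

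Same-numbered libraries of different groups did not deviate together (correlations of -0.0775 to 0.0767), so the numbers were not taken as pairs. As a replicate block they left 3 higher and 1 lower with CBX1 against Control and 2 higher with CBX1 against CBX1_W42A, and gave 1 lower there, ZFP41 (adjusted p = 0.0274 by edgeR's quasi-likelihood test). Members with few counts, such as ZSCAN10 and ZFP91, allow wide intervals only, and members inside other genes were not countable.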
